A study of Mus musculus with 16 samples.

Results

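The lymphocyte microRNAs miR-150 and miR-342 were followed in extracellular vesicles (EVs) captured from bone marrow plasma of mice. Their entries were chosen by name and were mmu-miR-150-5p, mmu-miR-150-3p and mmu-miR-342-3p (the prefix mmu, for mouse, is left out from here on), 3 of the 1915 mature microRNAs in the count table. All 3 had counts, and 2 of them, miR-150-5p and miR-342-3p, passed the filter on low counts that left 234 entries for testing. EVs were pulled down with magnetic beads carrying an antibody to the HA tag from 6-month-old C57BL/6N mice. Every mouse carried the CAGS-Snorkel reporter together with a Cre driver. The driver was Ocn-Cre in 6 mice (3 male and 3 female) and Prx1-Cre in 10 mice (5 male and 5 female), and the groups are called Ocn and Prx1. Ocn-Cre acts through the osteocalcin promoter, in mature cells of the bone-forming lineage, whereas Prx1-Cre acts early, in the mesenchyme of the limb bud, and so marks all cells that descend from it. Each group has as many libraries as the labels give mice, without the sex of the single libraries. Mice without Cre and unselected plasma were not analysed here, so the level of either microRNA in EVs bound without the tag is not known. In bulk EVs, fewer vesicles from a cell type and less of a microRNA per vesicle cannot be told apart.

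miR-150 is a microRNA of mature B and T lymphocytes, where it acts on the transcription factor Myb and is low in their precursors. miR-342 is made from an intron of Evl, a gene of actin dynamics, and is abundant in blood cells, lymphocytes among them. A microRNA hairpin gives a 5p and a 3p product, of which one is usually kept as the guide strand in Argonaute and the other is mostly lost. Bases 2 to 8 of the mature strand, the seed, pair with target transcripts.

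The seed of a microRNA sets which transcripts it can pair with, so the mature strands are shown first, with the seed in capitals. Sequences are from RefSeq (GRCm38.p6), in which 2 of the 3 entries were matched, and the second arm of miR-342 is added. miR-150-5p is given by name.
miR-150-3p: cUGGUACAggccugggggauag
miR-342-3p: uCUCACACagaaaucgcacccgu
miR-342-5p: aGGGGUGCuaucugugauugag
The 3 seeds differ from each other, and none of the 1679 mature mouse microRNAs in that table shared any of them. In the hairpin of miR-342 the 5p arm comes first and 20 bases separate the arms, which are in capitals here.
Mir342 hairpin: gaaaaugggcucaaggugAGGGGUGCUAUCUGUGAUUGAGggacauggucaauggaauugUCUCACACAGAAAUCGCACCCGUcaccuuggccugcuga
Mir342 lies on the plus strand at chr12:108658620-108658718, in an intron of Evl, which is on the same strand. Mir150 lies on the plus strand at chr7:45121757-45121821, outside annotated genes, 96 bases before the noncoding Gm45552. Its 3p strand covers chr7:45121798-45121819. miR-342-3p is 23 bases long with 12 G or C, and miR-150-3p is 22 bases long with 14 G or C.

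miR-150-5p, the guide strand of its hairpin, was lower in Ocn than in Prx1. The unit is counts per 1000000 counts of the library (CPM). In Ocn the lowest library had 564 CPM (Ocn 5), the median was 802 CPM and the highest library had 1176 CPM. Prx1 libraries ran from 1107 CPM through a median of 1463 CPM to 2907 CPM. Of the 10 Prx1 libraries 9 lay above every Ocn library, and only Prx1 10 fell among them, below Ocn 3. The means were 848 ± 228 CPM (SD, n = 6) and 1713 ± 558 CPM (SD, n = 10), a 2.02-fold difference. With TMM scaling, which corrects totals for composition, the groups did not overlap, with 1082 CPM in the highest Ocn and 1104 CPM in the lowest Prx1 library. Such a gap between groups was found for 2.99% of the tested entries. In rank of mean CPM among all entries miR-150-5p stood at 66 in Ocn and 52 in Prx1.

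In the fit across all 234 tested entries the log2 fold change of miR-150-5p, Ocn over Prx1, was -1.05 (SE 0.20, 95% interval -1.46 to -0.64, edgeR adjusted p = 0.00125). It was the only one of the entries followed here to pass, where 7.69% of all tested entries passed with lower values in Ocn and 13.7% passed in either direction. By unadjusted p it stood at place 3 of the table, and 1 called entry lower in Ocn had a larger log2 fold change. An exact permutation test of log2 CPM alone gave a difference of -0.996 (SE 0.21, 2-sided exact permutation p = 0.000500). All 10 Prx1 libraries were above the Ocn mean. The difference was already known when the entry was chosen, so these tests describe it and are no independent evidence.

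**Figure D1:**
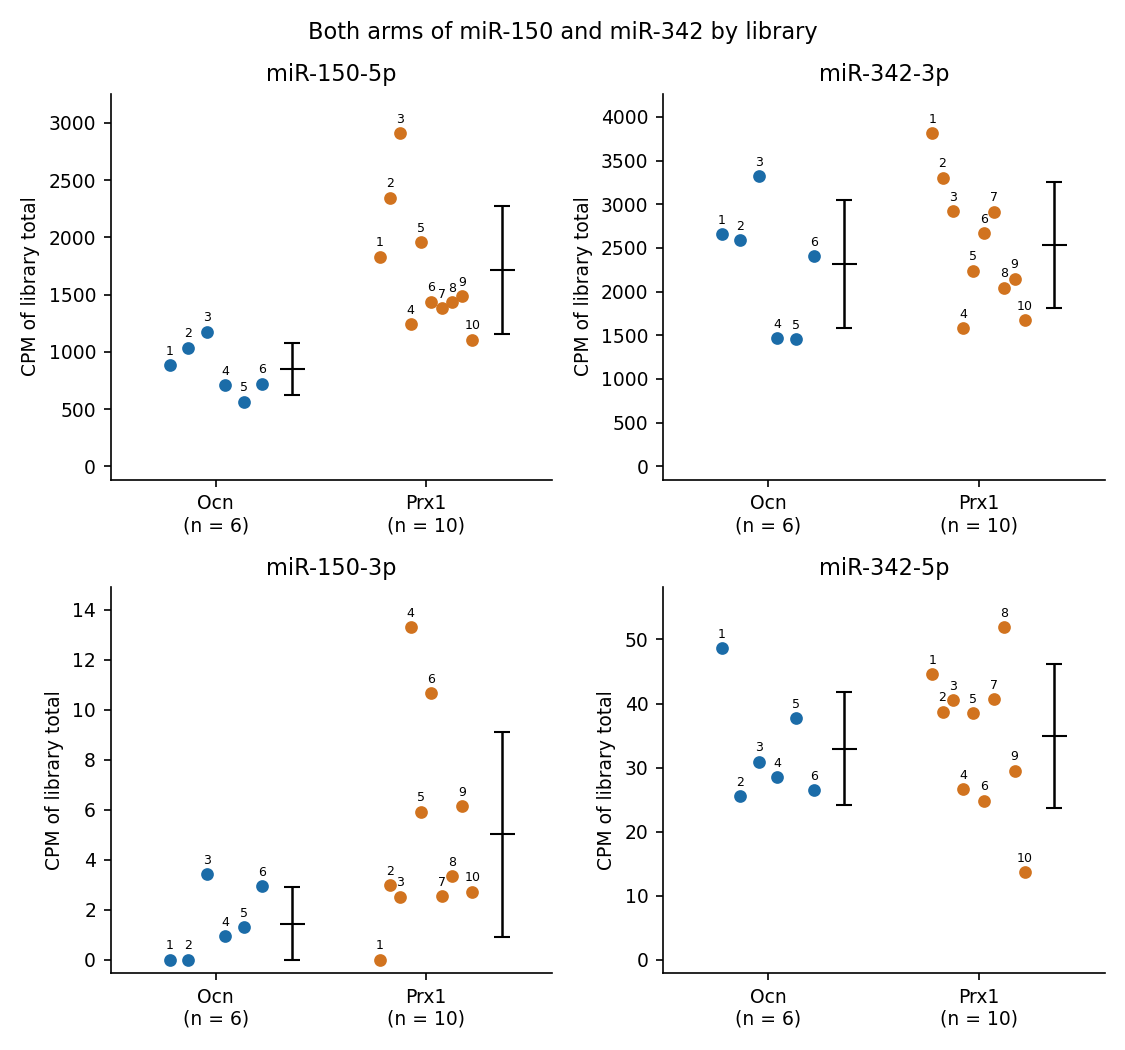
CPM of the library total (vertical axes, linear) of both arms of miR-150 and miR-342 in the 6 Ocn and 10 Prx1 libraries. Points are libraries with their replicate number, and the bar beside each group is the mean with 1 SD. For miR-150-5p only Prx1 10 lies below the highest Ocn library, whereas the groups overlap widely for miR-342-3p.

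The spread of miR-150-5p within a group was larger than counting alone gives. Its counts per library were between 280 and 1210, for which the counting error is 5.98% and 2.87%. The SD was 26.9% of the mean in Ocn and 32.6% in Prx1. Within Prx1 the libraries Prx1 3 (2907 CPM), Prx1 2 (2346 CPM) and Prx1 5 (1958 CPM) were highest, and the remaining libraries had 1832 CPM or less. Prx1 5 was also the library with most miR-122-5p, a liver microRNA, at 1644 CPM where the Prx1 median was 7.17 CPM, and without it the log2 fold change of miR-150-5p was -1.02 (edgeR adjusted p = 0.00138). With any single library left out, the log2 fold change stayed between -1.11 and -0.88 (without Ocn 5), and the edgeR adjusted p was at most 0.00514.

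Depth moved with the group. Ocn libraries held 582660 to 1536421 counts and Prx1 libraries 225273 to 813770 (exact permutation test of log10 totals, p = 0.00200). With the log10 total as a covariate the log2 fold change of miR-150-5p was -0.84 (SE 0.29, unadjusted p = 0.00728, edgeR adjusted p = 0.131), and no entry of the table passed. With every library thinned at random to 225273 counts, the log2 fold change was -1.06 (edgeR adjusted p = 0.00251). Thinning keeps the expected proportions within each library, so a value near that of the full counts was given in advance. It cannot separate depth from group. Within Prx1, miR-150-5p showed no relation to depth (Pearson r = -0.01, permutation p = 0.985, Spearman rho = 0.12, permutation p = 0.757, n = 10). In Ocn r was -0.60 (exact permutation p = 0.214, Spearman rho = -0.66, exact permutation p = 0.175, n = 6) and 0.25 without Ocn 3 and Ocn 5. The adjusted p over the 6 relations computed was 0.985 and 0.321. In Prx1 r was 0.38 without Prx1 8 and Prx1 9.

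Depths overlapped in 5 libraries. Among these, Ocn 1, Ocn 3 and Ocn 6 had 884, 1176 and 720 CPM of miR-150-5p at 616811, 582660 and 680641 counts. Prx1 8 and Prx1 9 had 1431 and 1487 CPM at 596734 and 813770 counts. Both Prx1 values lay above the 3 Ocn values, but with so few libraries of like depth no test was made.

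**Figure D2:**
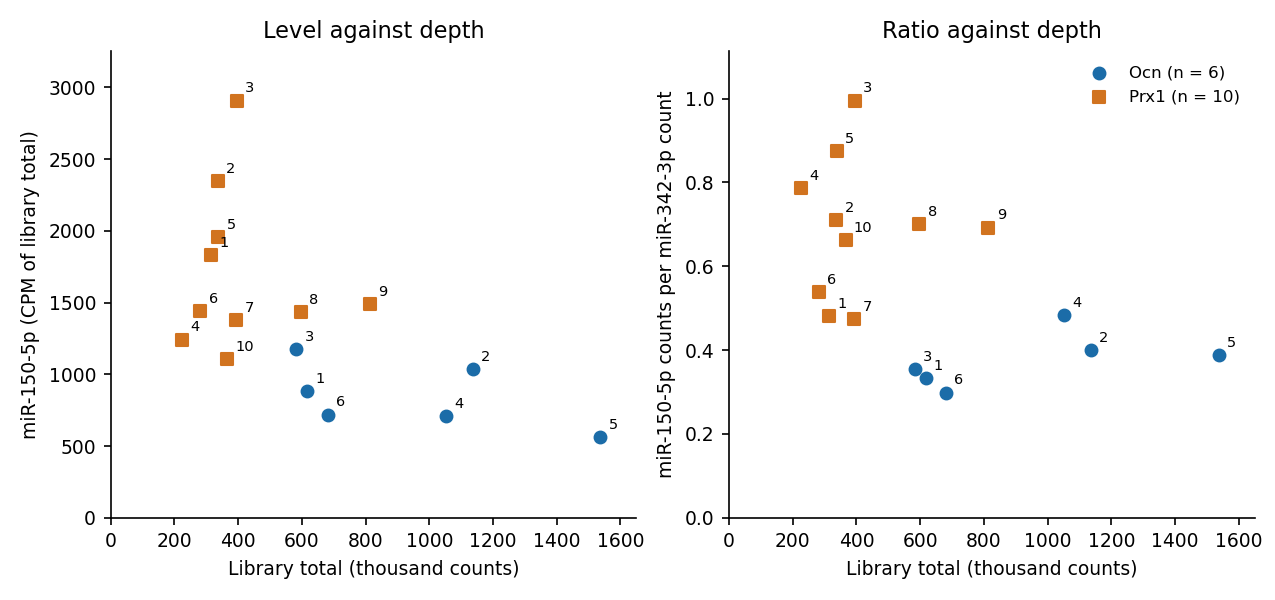
Library total in units of 1000 counts (horizontal axes) against miR-150-5p in CPM of the library total (left) and miR-150-5p counts per miR-342-3p count (right), 1 point per library with its replicate number. Prx1 8 and Prx1 9, which are as deep as Ocn 1, Ocn 3 and Ocn 6, lie above them in both panels.

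miR-342-3p was more abundant than miR-150-5p in every library and did not pass the threshold. It ran from 1455 CPM through a median of 2498 CPM to 3319 CPM in Ocn. In Prx1 it ran from 1580 CPM through a median of 2455 CPM to 3811 CPM. The groups overlapped, and only Prx1 1 was above the highest Ocn library while Ocn 4 and Ocn 5 were below the lowest Prx1 library. Means were 2314 ± 731 CPM (SD, n = 6) and 2531 ± 720 CPM (SD, n = 10). The log2 fold change was -0.17 (SE 0.20, edgeR adjusted p = 0.640), and its 95% interval from -0.59 to 0.24 includes changes of either sign. An exact permutation test of log2 CPM gave p = 0.539. Without Ocn 5, the deepest library, the log2 fold change was -0.0009, and with the depth covariate it was 0.21 (SE 0.28, edgeR adjusted p = 0.732).

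Whether the pair changed unequally was tested by their ratio within a library, which no scaling can alter. Ocn libraries had 0.299 to 0.484 counts of miR-150-5p per count of miR-342-3p, with a median of 0.371. Prx1 libraries had 0.473 to 0.995, with a median of 0.696. Ocn 4 was the single Ocn library above the lowest Prx1 value, and 8 of 10 Prx1 libraries exceeded it. The log2 ratio was -1.43 ± 0.24 for the 6 Ocn and -0.57 ± 0.35 for the 10 Prx1 libraries (SD), a difference of -0.86 (SE 0.15, exact permutation p = 0.000749, adjusted p over 7 ratios = 0.00131). At overlapping depth the ratio was 0.333, 0.354 and 0.299 in Ocn 1, Ocn 3 and Ocn 6, and 0.700 and 0.692 in Prx1 8 and Prx1 9.

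The remaining ratios set each microRNA against abundant entries that are not particular to lymphocytes. Against miR-142a-3p, a microRNA of all blood lineages, miR-150-5p had 0.0152 to 0.0257 counts per count in Ocn (0.5 added to each count) and 0.0268 to 0.0597 in Prx1, without overlap. That log2 difference was -1.07 (SE 0.16, exact permutation p = 0.000250, the smallest this test allows, adjusted p = 0.00131). Against the myeloid miR-223-3p it was -0.79 (SE 0.13, exact permutation p = 0.000749, adjusted p = 0.00131), and against the broadly expressed miR-16-5p -1.02 (SE 0.17, exact permutation p = 0.000500, adjusted p = 0.00131). All 6 Ocn libraries were below the Prx1 mean in each of these ratios. For miR-342-3p the same log2 differences were -0.22 (SE 0.20) against miR-142a-3p, 0.07 (SE 0.20) against miR-223-3p and -0.16 (SE 0.23) against miR-16-5p, with exact permutation p of 0.318, 0.763 and 0.490 and adjusted p from 0.446 to 0.763.

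**Figure D3:**
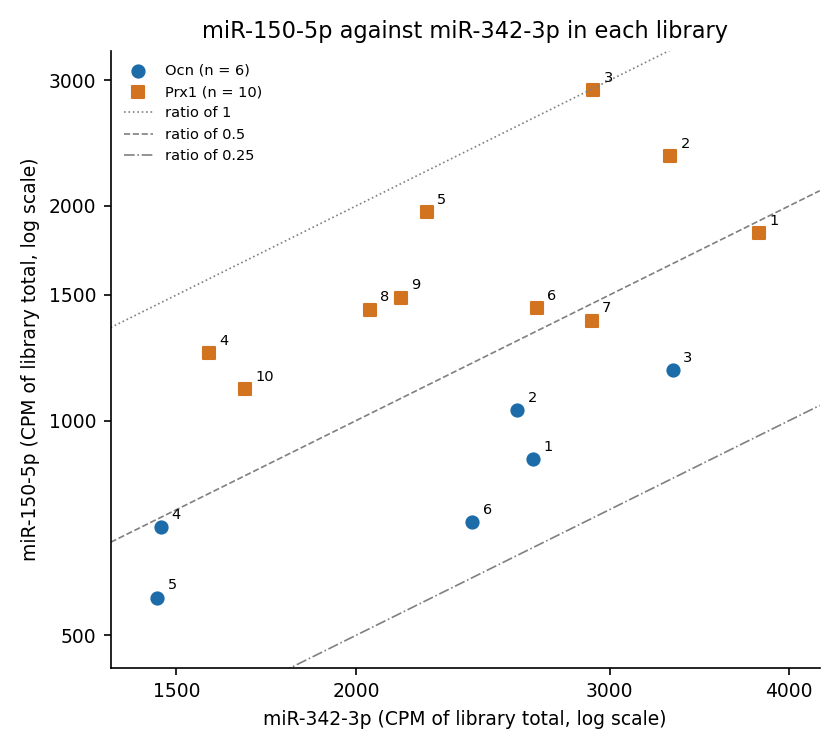
miR-342-3p (horizontal axis) against miR-150-5p (vertical axis) in CPM of the library total, both on log scales, 1 point per library with its replicate number. Grey lines mark equal ratios of miR-150-5p to miR-342-3p. Ocn points lie below Prx1 points of a like miR-342-3p level, and in each group the higher miR-342-3p libraries tend to have more miR-150-5p.

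Within each group, libraries with more miR-342-3p tended to have more miR-150-5p, although neither relation passed after adjustment. In Ocn the Pearson r of log2 CPM was 0.87 (exact permutation p = 0.0208, Spearman rho = 0.94, exact permutation p = 0.0167, n = 6). Without Ocn 3 and Ocn 5, the libraries with the most and the least miR-150-5p, r was 0.65. For Prx1 r was 0.65 (permutation p = 0.0398, Spearman rho = 0.72, permutation p = 0.0236, n = 10) and 0.63 without Prx1 2 and Prx1 3. The adjusted p over the 6 relations was 0.119 for both values of r and 0.0707 for both values of rho. In Ocn, miR-342-3p itself had an r of -0.78 with the log10 library total (exact permutation p = 0.0778, Spearman rho = -0.83, exact permutation p = 0.0583, adjusted p = 0.156), and of -0.46 without Ocn 3 and Ocn 5. For Prx1 that r was -0.06 (permutation p = 0.866, Spearman rho = -0.08, permutation p = 0.836), and 0.39 without Prx1 8 and Prx1 9. The part of depth in the relation between the microRNAs was not tested.

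miR-150-3p, the strand that is mostly lost, had between 0 and 5 counts per library. It summed to 7 counts in Ocn, with 0 counts in Ocn 1 and Ocn 2, and to 19 counts in Prx1, with 0 counts in Prx1 1. Over all libraries of a group this is 1.25 CPM in Ocn (exact 95% binomial interval 0.502 to 2.57) and 4.68 CPM in Prx1 (2.82 to 7.31), intervals that cover counting error only. A count of 0 in Ocn 1 allows up to 4.86 CPM, by a limit of 3 counts, and in Prx1 1 up to 9.54 CPM. Prx1 4 and Prx1 6, at 13.3 and 10.7 CPM from 3 counts each, were highest. Per library the log2(CPM + 1) level differed by -1.22 (SE 0.51, unadjusted exact permutation p = 0.0432), and this p was over 0.05 when any of 10 of the 16 libraries was left out. Its size followed the constant added, being -0.36 with 10 CPM in place of 1, and it was -1.95 in thinned counts. The entry was below the low-count filter, and in the edgeR fit without a filter its adjusted p was 0.201. No difference in miR-150-3p was therefore established at this depth.

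The 3p strand made up 0.155% of the counts of the miR-150 hairpin in Ocn (exact 95% binomial interval 0.0624 to 0.319) and 0.276% in Prx1 (0.166 to 0.430). The log2 ratio of 5p to 3p was 9.07 ± 1.34 for the 6 Ocn and 8.28 ± 1.16 for the 10 Prx1 libraries (SD), a difference that did not pass (0.79, SE 0.66, exact permutation p = 0.237). It was 0.36 without Ocn 2, 1.08 without Ocn 6 and 0.31 in thinned counts. For miR-342 the order of the arms is the opposite, since the 3p strand is the abundant one. miR-342-5p had 5 to 58 counts per library, or 1.51% of the hairpin in Ocn (interval 1.30 to 1.75) and 1.42% in Prx1 (1.2 to 1.67). Its levels were 33.0 ± 8.8 CPM (SD, n = 6) and 35.0 ± 11.2 CPM (SD, n = 10), with the highest value in Prx1 8 (51.9 CPM) and the lowest in Prx1 10 (13.7 CPM). Its log2 fold change was -0.15 (SE 0.23, edgeR adjusted p = 0.727). The 5p to 3p ratio of miR-342 differed by 0.07 (SE 0.26, limma adjusted p = 0.843), where 6.82% of 44 hairpins passed.

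Among other listed microRNAs known from lymphocytes, miR-181a-5p was higher in Ocn and the remaining tested entries of the list did not pass. Of 9 listed entries, the followed ones included, 7 were tested, 1 passed with higher and 1 with lower values in Ocn, and the median log2 fold change was -0.15, against 0.01 over all tested entries. Of the 5 tested entries that were not followed, miR-342-5p included, 1 was higher and 0 lower in Ocn. Over all tested entries 5.98% were higher and 7.69% lower, and 5 entries are too few to tell the count from that background. The higher entry was miR-181a-5p, known from thymocytes and early B cells, with 3083 ± 403 CPM for Ocn and 1973 ± 253 CPM for Prx1 (SD), a log2 fold change of 0.61 (SE 0.11, edgeR adjusted p = 0.00125). Its relative miR-181b-5p had 0.26 (SE 0.11, edgeR adjusted p = 0.135). Its relative miR-181c-5p, not on the list, passed with 0.61 (SE 0.17, edgeR adjusted p = 0.0210). Also not on the list, miR-181d-5p had 0.11 (SE 0.15, edgeR adjusted p = 0.707). Of the list, miR-155-5p, induced in activated lymphocytes, had -0.25 (SE 0.12, edgeR adjusted p = 0.182). For miR-146a-5p, a brake on NF-kB signalling, it was -0.00 (SE 0.20, edgeR adjusted p = 0.999). miR-155-3p was at 0 in every library. As the members of this list that passed went opposite ways, the ratio of miR-181a-5p to miR-150-5p counts is given per library as a description. It ran from 2.94 to 4.93 in Ocn, with a median of 3.63, and from 0.676 to 1.84 in Prx1, with a median of 1.42.

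**Figure D4:**
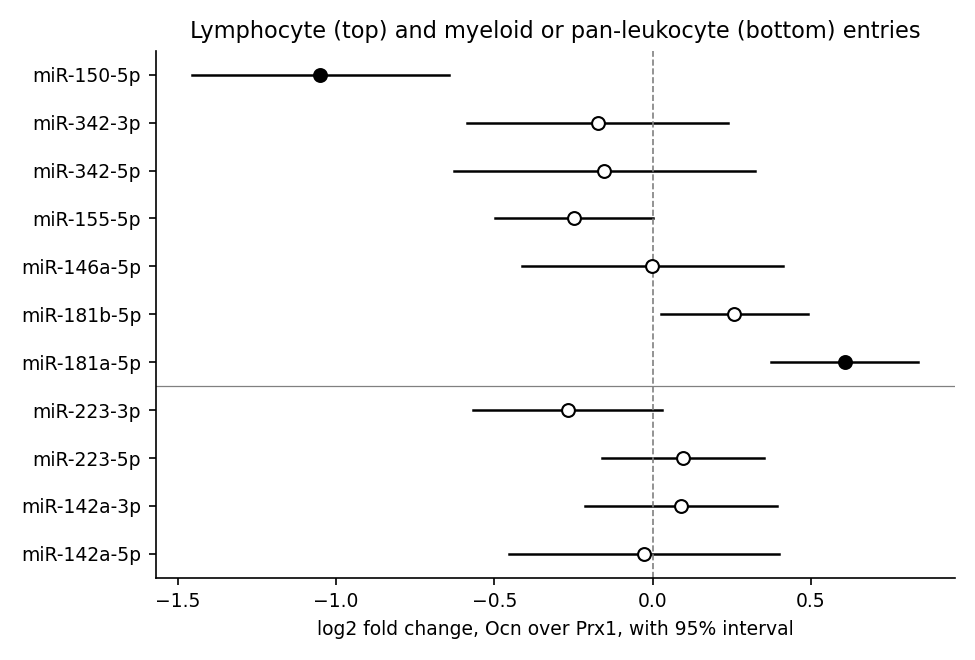
Log2 fold changes, Ocn over Prx1, with 95% intervals from the edgeR fit, for the tested lymphocyte entries (top) and the myeloid or pan-leukocyte entries (bottom). Filled points passed an adjusted p of 0.05, which were miR-150-5p at -1.05 and miR-181a-5p at 0.61, while the intervals of both arms of miR-342 include 0.

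Summed over the list, lymphocyte microRNAs had 11305 to 15781 CPM in Ocn and 9747 to 17570 CPM in Prx1. Lists of other cell types were read beside this, against 5.98% of all tested entries higher and 7.69% lower in Ocn. Of all 234 tested entries 119 had a log2 fold change above 0 and 62 an unadjusted p under 0.05 in edgeR. Of the same 234 entries 42 passed with DESeq2 and 48 with limma voom. Of 4 myeloid and pan-leukocyte entries 0 passed with edgeR (0 with an unadjusted p under 0.05), DESeq2 or limma voom, and they summed to 39360 to 94638 CPM in Ocn and 42431 to 69316 CPM in Prx1. miR-142a-3p had a log2 fold change of 0.09 (SE 0.15), miR-223-3p of -0.27 (SE 0.14) and miR-16-5p of -0.01 (SE 0.10). Of 5 erythroid entries 2 were lower in Ocn, the near-identical miR-486a-5p and miR-486b-5p (-0.38 each), while miR-144-3p had 0.58 (edgeR adjusted p = 0.0569), miR-451a 0.22 and miR-144-5p 0.17. With DESeq2 and with limma voom 3 of the 5 passed, and the list summed to 23947 to 43670 CPM in Ocn and 31873 to 47291 CPM in Prx1. Of 4 muscle entries 2 were lower in Ocn, miR-133a-3p (-0.68) and miR-133b-3p (-0.96). The most abundant, miR-1a-3p, had 0.34 (48287 ± 9033 CPM in Ocn, 37029 ± 10218 CPM in Prx1, SD) and miR-206-3p had -0.29, neither past the threshold. The muscle list summed to a median of 61590 CPM in Ocn and 57006 CPM in Prx1. Neither list thus moved in 1 direction, and the part of erythroid or muscle EVs in the difference of miR-150-5p was not tested. Of 15 mesenchymal and stromal entries 4 were higher in Ocn, namely miR-99a-5p (0.45), miR-22-3p (0.45), miR-199a-5p (0.43) and miR-218-5p (0.39), and 0 lower. Among those that did not pass, miR-140-3p had -0.51, miR-10b-5p -0.41 and miR-214-3p -0.29. Most of the list went the other way, with 11 of 15 log2 fold changes above 0 and a median of 0.29. In edgeR 8 of the 15 had an unadjusted p under 0.05, and 5 passed with DESeq2 and 7 with limma voom. With the erythroid and muscle lists removed before scaling, miR-150-5p had a log2 fold change of -1.04 (edgeR adjusted p = 0.00104). Of 2 endothelial entries and 1 tested liver entry 0 passed with edgeR (0 with an unadjusted p under 0.05), DESeq2 or limma voom.

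Myb is also reported as a target of the miR-15 and miR-16 family and of miR-34a. Of 4 such entries 0 passed with edgeR, DESeq2 or limma voom, while 2 had in edgeR an unadjusted p under 0.05. These were miR-15a-5p with a log2 fold change of 0.39 (SE 0.15, edgeR adjusted p = 0.0883) and miR-15b-5p with -0.38 (SE 0.18, edgeR adjusted p = 0.182), while miR-34a-5p had 0.13 (SE 0.18). Of all 234 tested entries 62 had an unadjusted p under 0.05 in edgeR. Of the same entries 32 passed with edgeR, 42 with DESeq2 and 48 with limma voom. A list of 4 entries is too short to tell its counts from that background. Neither Myb nor any other messenger RNA was measured in these libraries.

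The entries whose libraries varied most like the followed ones were found by Spearman rho of log2 TMM-scaled CPM over the 16 libraries, after subtraction of each group's mean. For miR-150-5p these were miR-30d-5p (rho 0.84), miR-361-5p (0.76), miR-425-5p (0.74), miR-223-3p (0.72) and miR-142a-3p (0.69), and miR-342-3p came ninth with a rho of 0.66. miR-30d-5p was also lower in Ocn, with TMM-scaled means of 7340 CPM there and 10965 CPM in Prx1 and a log2 fold change of -0.58 (SE 0.13, edgeR adjusted p = 0.00478). For miR-342-3p the nearest were miR-92a-3p (0.83), miR-328-3p (0.77), miR-204-5p (0.74), miR-222-3p (0.73) and miR-34a-5p (0.67). For miR-342-3p, miR-150-5p came at place 7, with a rho of 0.66. These libraries share depth and composition, so the values are descriptions.

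Entries of like abundance are given beside the members as a description. Over all libraries miR-150-5p stood at rank 57 of the tested entries by mean TMM-scaled CPM, between let-7j and miR-24-3p. miR-342-3p stood at rank 44, between miR-30e-5p and miR-196b-5p. The log2 fold changes of these 4 neighbours lay between -0.13 and 0.04, and none passed the threshold (smallest edgeR adjusted p = 0.707). Over all tested entries 13.7% passed in either direction, and 4 entries are too few to tell from that background. The neighbours also varied less, with an SE of 0.12 for let-7j, miR-24-3p and miR-30e-5p and 0.18 for miR-196b-5p. Both members had an SE of 0.20.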

How the data were processed

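Small RNA libraries of 16 EV samples were analysed from the authors' deposited table of raw counts, which lists mature microRNAs by library. All its values are whole numbers and its columns sum to unequal totals, so they were read as not normalized. Per the labels' protocols, the QIAseq miRNA kit was used on 1 ng of RNA. Per the submitters' processing notes, cutadapt 1.18 and the mm10 build were used. Which aligner and counter were used, and whether molecular identifiers were counted, is not given in the sources used here. The exact binomial intervals cover counting error only, while the intervals of the edgeR fit include the spread between libraries. None of 60 within-group pairs of libraries agreed within sampling noise (lowest chi-square over its degrees of freedom, 5.04).

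Groups follow the titles. Entries were tested over the whole table with edgeR 4.0.16 in R 4.3.3 (filterByExpr, TMM, robust quasi-likelihood F test, Benjamini-Hochberg threshold of 0.05). An SE is the log2 fold change divided by the square root of F. Single values were compared by 2-sided exact permutation tests over 8008 splits, on log2(CPM + 1) or on log2 ratios of counts with 0.5 added (scipy 1.17.1). Correlations in Prx1 used 100000 resamples. Arm ratios were tested with limma 3.58.1. The edgeR and permutation tests were tried on simulated data. Alternatives were DESeq2 1.42.0, limma voom, other scalings and filters, thinning, depth as a covariate, a replicate block, removed entries and each library left out. Entries named are the members, the second arm of miR-342, the lymphocyte list, the denominators of the ratios, called entries of other lists, and the nearest entries by rho and by abundance. Members of the Myb list, entries of other lists that did not pass, miR-122-5p, miR-181c-5p and miR-181d-5p were added after their values were seen. The members and the lists were chosen with earlier results of these data known. Hairpin positions are from GENCODE M21.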

Additional observations from a re-analysis of the deposited data

Results flagged for a closer look

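Among 26 groups of values examined (the levels and ratios of both arms in each group), 1 held a library far from the others, where chance gives about 1 in 20. miR-150-3p had 0 counts in Prx1 1, a log2(CPM + 1) of 0.0, while each of the other 9 Prx1 libraries had 1 to 5 counts. The gap to the nearest library was 0.474 of the range of the group, against a critical value of 0.466. The gap is that between 0 and 1 count, and the 9.54 CPM that 0 counts allow in Prx1 1 is above the values of 7 of the other 9 libraries, so the library is not shown to lie apart.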

How the results depend on the processing

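With depth (log10 total) as covariate, 0 entries passed (40 with an unadjusted p under 0.05), miR-150-5p had a log2 fold change of -0.84, miR-342-3p 0.21 and miR-146a-5p 0.38, and the cause was not tested. The log2 fold change of miR-150-5p kept its sign and passed in the other 13 of 14 settings of the whole fit and in all 16 fits with a library left out. Upper quartile scaling moved the median over all tested entries from 0.01 to 0.13 and gave 26 higher and 11 lower calls in place of 14 and 18, with -0.91 for miR-150-5p. The 32 calls were 48 with limma voom, and 24 to 36 with a library left out.

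The deviations of same-numbered libraries of the groups correlated by 0.0147 to 0.219, and 1 of 6 Ocn libraries matched its own number best. Without a test, these values neither show nor exclude a pairing. With the replicate block 27 entries passed, and miR-150-5p had -1.18 (edgeR adjusted p = 0.000366). In the paired sign-flip test, whose smallest p over 6 pairs is 0.0312, the log2 ratio of miR-150-5p differed by -0.93 against miR-342-3p, -1.16 against miR-142a-3p, -0.81 against miR-223-3p and -1.18 against miR-16-5p, with adjusted p of 0.0729 to 0.109. The level of miR-150-3p differed by -1.28 there (paired sign-flip p = 0.125), and without pairing by -1.47 to -1.01 with a library left out.

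Values close to 0 changed sign. With a library left out, the ratio of miR-342-3p to miR-223-3p ran from -0.0277 (without Prx1 4) to 0.18, the arm ratio of miR-342 from -0.10 to 0.19 (thinned, -0.22), the level of miR-342-5p from -0.17 to 0.031 and its log2 fold change from -0.24 to 0.026 (both without Prx1 8). Those of miR-146a-5p ran from -0.075 to 0.21, of miR-142a-3p from -0.0675 to 0.20 and of miR-16-5p from -0.0577 to 0.0842. For miR-146a-5p the value was 0.0437 with voom, 0.022 with library totals, 0.11 with upper quartile scaling, 0.0815 without a filter, 0.0025 with a filter of 10 CPM and 0.0026 thinned. miR-142a-3p had -0.0645 with voom and -0.0231 with the block. miR-16-5p had 0.0189 with library totals, 0.12 with upper quartile scaling, 0.0624 without a filter, 0.0012 with the block and 0.0080 with 6 Prx1 libraries. Of the other calls named, those of miR-486a-5p and miR-486b-5p were lost in 15 of 29 settings each, miR-199a-5p in 14, miR-99a-5p in 11, miR-218-5p in 9 and miR-22-3p in 5 of 30. The call of miR-181c-5p was not followed over the settings. Apart from the denominators miR-142a-3p, miR-223-3p and miR-16-5p, 11 named entries of other lists did not pass. Of these 11, 0 changed sign in any setting of the whole fit. In some settings 5 passed, miR-144-3p in 7, miR-15a-5p in 6, miR-10b-5p in 4, and miR-1a-3p and miR-140-3p in 3 each.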
